A study of Mus musculus with 82 samples.

Results

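Retinoid metabolism was followed in adult mouse liver through 5 genes: Cyp26a1, Lrat, Rdh7, Aldh1a1 and Aldh1a7. They were chosen as the probes that the array annotation assigns to these symbols. Each had 1 probe, so they make up 5 of 21915 measured features, of which 3439 carried a gene name. The study measured liver RNA of BXD mice, recombinant inbred strains that carry mosaics of the C57BL/6J (B6) and DBA/2J (D2) genomes, on 82 two-colour arrays. There were 40 arrays of BXD females, 32 of BXD males and 2 of B6 males, each against 1 common RNA mix of B6 embryos at day 17.5. Another 6 arrays set B6 liver directly against D2 liver, and 2 set enriched B6 liver against enriched D2 liver, a word the labels do not explain. The mice were unfasted and 10 to 20 weeks old per the series description, which names 3 males per strain, whereas the labels hold both sexes. The sources do not say whether an RNA came from 1 mouse or a pool, so the spread between samples may be partly technical. Whole liver was used, so a change in the share of a cell type and a change in RNA per cell cannot be told apart.

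Vitamin A reaches the liver as retinol and is stored there as retinyl ester, mostly in stellate cells. Lrat makes these esters. Retinol dehydrogenases such as Rdh7 oxidise retinol to retinaldehyde, and Aldh1a1 oxidises retinaldehyde to retinoic acid, which acts through nuclear receptors. Cyp26a1 breaks retinoic acid down by hydroxylation, and its own transcription is known to be induced by retinoic acid. Aldh1a7 is a close relative of Aldh1a1.

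The promoters of 3 of the genes are shown, because one holds a known retinoic acid response element and the other two resemble each other. All are RefSeq windows from 250 bases before to 50 after the annotated start, in GRCm38.p6. The Cyp26a1 window lies at chr19:37697558-37697857 on the plus strand, and its capitals mark 2 copies of TGAACT with 5 bases between them. The Aldh1a1 window, the second of 2 for this gene, lies at chr19:20601718-20602017 on the plus strand. The Aldh1a7 window lies at chr19:20727507-20727806 on the minus strand. Capitals in the last 2 mark their longest identical stretch.
Cyp26a1: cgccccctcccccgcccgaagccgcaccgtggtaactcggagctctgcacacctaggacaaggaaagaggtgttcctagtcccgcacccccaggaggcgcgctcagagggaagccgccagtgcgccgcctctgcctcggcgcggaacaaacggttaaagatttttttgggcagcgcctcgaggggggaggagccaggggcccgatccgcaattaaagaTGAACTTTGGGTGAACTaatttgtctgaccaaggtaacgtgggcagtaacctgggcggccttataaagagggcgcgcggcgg
Aldh1a1: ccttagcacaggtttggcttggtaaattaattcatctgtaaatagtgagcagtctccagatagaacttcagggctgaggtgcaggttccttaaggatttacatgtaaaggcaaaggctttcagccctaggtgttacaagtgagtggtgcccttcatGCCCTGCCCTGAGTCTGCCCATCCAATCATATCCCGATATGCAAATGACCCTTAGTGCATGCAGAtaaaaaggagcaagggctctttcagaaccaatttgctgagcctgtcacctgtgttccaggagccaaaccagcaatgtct
Aldh1a7: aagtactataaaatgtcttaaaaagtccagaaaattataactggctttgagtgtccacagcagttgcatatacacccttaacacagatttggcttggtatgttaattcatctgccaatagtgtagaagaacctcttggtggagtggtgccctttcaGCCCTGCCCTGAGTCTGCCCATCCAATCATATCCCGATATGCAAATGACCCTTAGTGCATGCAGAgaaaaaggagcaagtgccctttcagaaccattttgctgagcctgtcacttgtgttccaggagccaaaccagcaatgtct

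The repeat was searched as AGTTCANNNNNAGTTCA on both strands. Of the 5 genes, Cyp26a1 alone held it, from 32 to 16 bases before the start, and so did 8 of 32851 mouse promoter windows (0.0244%). The related repeat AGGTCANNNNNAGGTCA occurred in 3 windows and in none of the 5 genes. A match is a run of letters and not a measured binding site. The shown windows of Aldh1a1 and Aldh1a7 shared an identical run of 65 bases and 95 of their last 100 bases, and 70.4% of aligned positions were identical overall. The other Aldh1a1 window shared at most 8 bases in a row with Aldh1a7. Aldh1a1 and Aldh1a7 are direct neighbours among the protein-coding genes of chromosome 19, Rdh7 lies on chromosome 10 and Lrat on chromosome 3. Probe sequences were not analysed here, so how far the probes of near-identical genes read each other's transcript is not known.

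All values are log2 ratios made from the deposited log ratios, which were read as log10 because 94 of them sat exactly at 2 on either side of 0. Each array against the embryo mix was turned so that a positive value means more RNA in liver than in the mix. Direct and enriched arrays were turned so that a positive value means more RNA in B6 than in D2. Both channels are labelled cy3, so the direction rests on a list of 10 hepatocyte genes having a higher median than 14 embryonic genes on 74 of 74 arrays. The lowest hepatocyte median was 2.67 and the highest embryonic median -1.07. The same channel order was taken for the arrays of B6 against D2, which this check does not cover. On 1 array of BXD11 females the title names a dye swap and the channel labels do not. It was turned by its channels, and no call on the 5 genes changed without it. Arrays were averaged within each dye orientation, called forward and swapped, and then across orientations, giving 1 value per strain and sex. Of the 17 strains, 13 had both orientations, and BXD8, BXD9, BXD14 and BXD27 had forward arrays only.

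Adult liver held more RNA than the embryo mix for all 5 genes, in 13 of 13 strains each. Calls required an adjusted p under 0.05 (limma, Benjamini-Hochberg over all features) and an absolute log2 ratio of at least 1. By that rule 4 of the 5 genes were called higher, against 4.69% of all features called higher, 9.17% called lower and 13.9% called in either direction. The retinol dehydrogenase Rdh7 had a log2 ratio of 4.31 ± 0.11 (SD over strains, n = 13), which is 19.9-fold (adjusted p = 1.43e-21). Its strain means lay between 4.08 in BXD32 and 4.49 in BXD28. Aldh1a1 was nearly as high, at 4.23 ± 0.13 or 18.7-fold (adjusted p = 4.45e-21), with strain means from 4.05 in BXD18 to 4.42 in BXD5 and BXD28. Of the 4 strains with forward arrays only, BXD8 lay lower for both genes, at 3.91 for Rdh7 and 3.48 for Aldh1a1, and BXD14 was at 3.91 for Aldh1a1. These means are not on the same footing as those of the 13 strains. Forward minus swapped arrays averaged -0.26 ± 0.36 for Aldh1a1 over 26 pairs of strain and sex, with forward higher in 4. For Rdh7 the mean was -0.03. Forward arrays of BXD18 read 4.03 in females and 3.60 in males for Aldh1a1.

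Aldh1a7 was 5.3-fold higher in liver, at log2 2.41 ± 0.35 (adjusted p = 4.97e-13), with strain means from 1.86 in BXD32 to 3.1 in BXD28. Cyp26a1 was 2.38-fold higher on average, at 1.25 ± 0.62 (adjusted p = 1.64e-06), and it had the widest spread of the 5 genes across strains. Lrat was 1.77-fold higher, at 0.82 ± 0.25 (adjusted p = 6.7e-09). Its ratio fell short of the required size, so it was not called. The embryo mix is 1 reference for all arrays, and its own spread is outside these tests. Ratios of different probes say nothing about which transcript is more abundant.

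**Figure D1:**
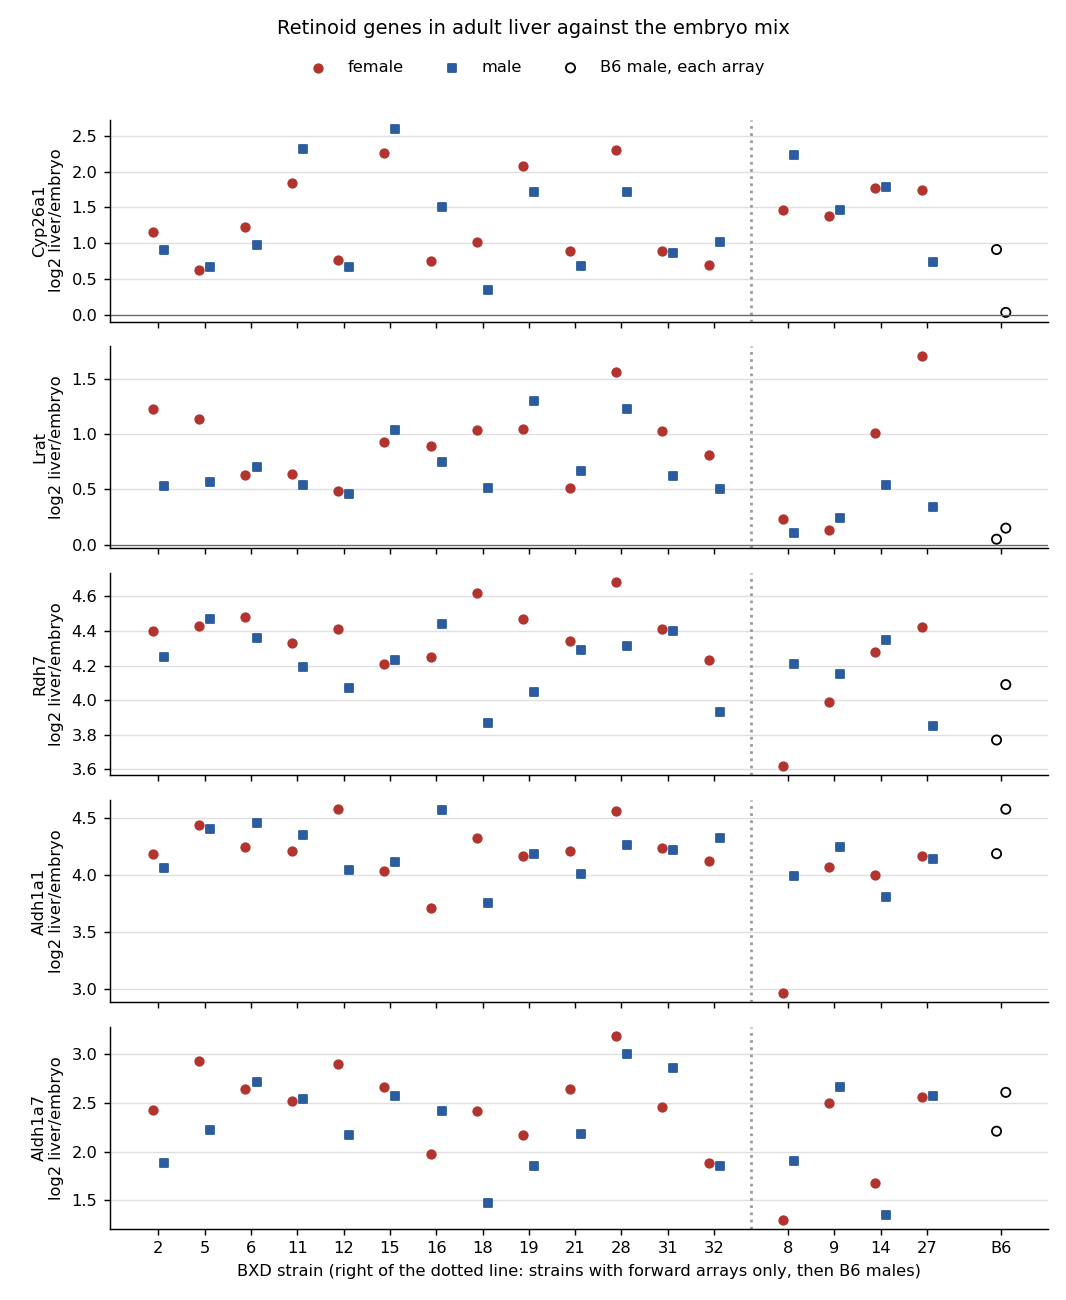
Log2 liver over embryo ratio of each gene (vertical axis, a scale of its own in each panel) by BXD strain (horizontal axis), with females as circles, males as squares and the 2 B6 male arrays as open circles. The 13 strains left of the dotted line average 4.31 for Rdh7 and 4.23 for Aldh1a1, whereas Cyp26a1 ranged over strain means from 0.64 to 2.43.

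The other measured genes of the retinoid pathway did not move as 1 group. Among 9 further retinol and retinaldehyde oxidoreductases, 4 were called higher in liver and none lower, with a list median of 0.6 against 0.07 over all features. Those called were the alcohol dehydrogenases Adh4 (log2 3.37, 10.3-fold), Adh1 (3.08, 8.45-fold) and Adh5 (1.71, 3.28-fold), and the retinol dehydrogenase Rdh16 (1.68, 3.2-fold). Of 7 genes of retinyl ester and carotenoid metabolism, 2 were called higher and 1 lower. The carotene-cleaving enzyme Bco1 was at 1.08 and the lipase Pnpla2 at 2.14. Lipoprotein lipase, Lpl, was at -2.45.

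Of 3 retinoid receptors and cofactors described here, 1 was called lower in liver and none higher. It was the nuclear receptor corepressor Nrip1 (-1.78). Of 7 genes known to be induced by retinoic acid, 2 were called lower, Nrip1 again and the homeobox gene Meis2 (-1.65), and none higher. Cyp2c39, the only other measured gene of retinoic acid synthesis and breakdown, was at 0.91 and was not called. Neither of the 2 measured retinoid-binding genes was called, with Crabp1 at -0.41 and Rlbp1 at -0.20. Among 4 other aldehyde dehydrogenases, Aldh3a2 (2.79, fatty aldehydes) and Aldh2 (2.49, acetaldehyde) were called higher, and Aldh18a1 (-1.48, proline synthesis) was called lower.

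**Figure D2:**
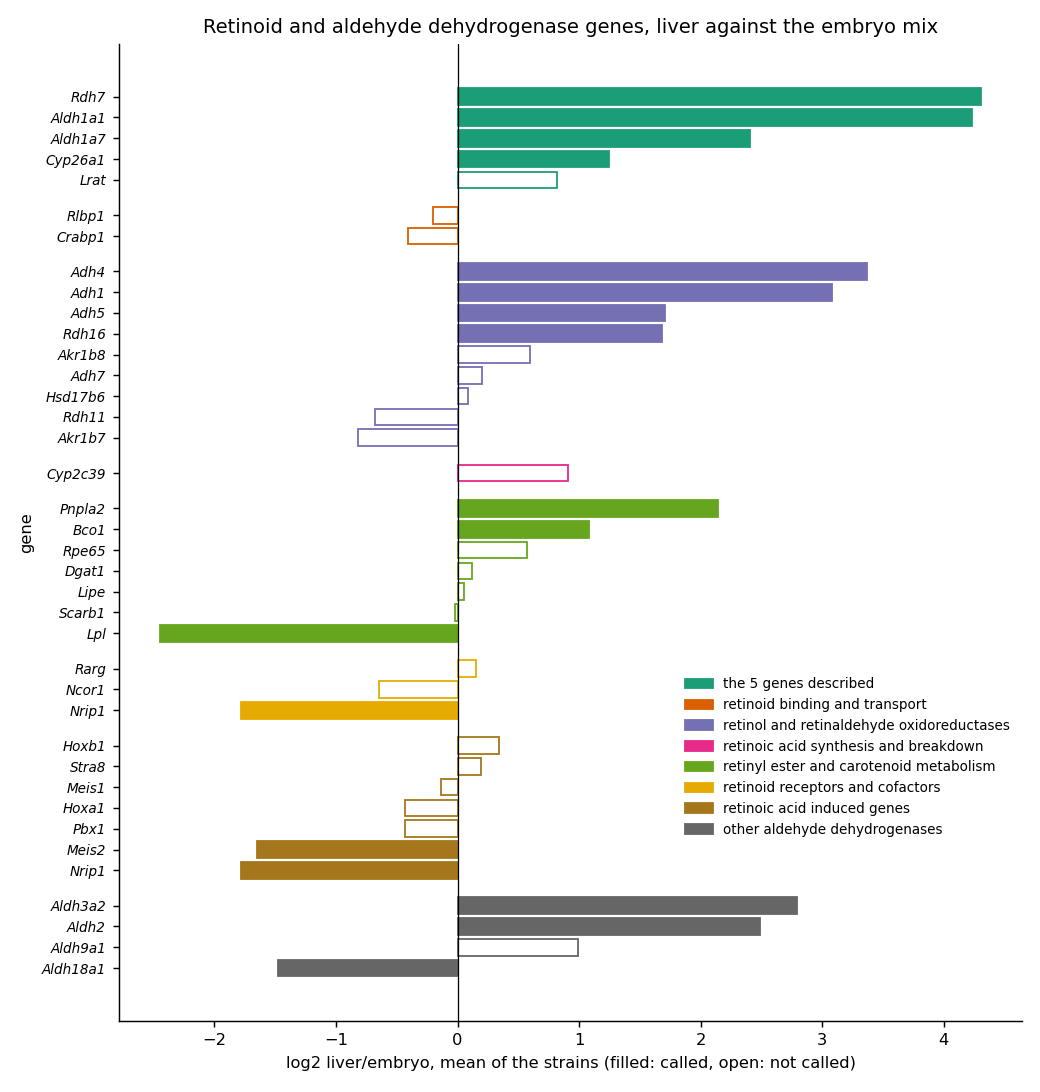
Mean log2 liver over embryo ratio of 13 strains (horizontal axis) for the 5 genes and the measured genes of 7 related lists (vertical axis, colour by list), with filled bars for called genes and open bars for the rest. The dehydrogenases reach up to 4.31, while the called cofactor and retinoic acid induced genes, Nrip1 and Meis2, lie at -1.78 and -1.65.

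Of the 5 genes, Cyp26a1 alone was called between strains. Its strain means had an SD of 0.62 and ran from 0.64 in BXD5 to 2.43 in BXD15, a 3.46-fold range. A moderated F test with a term for sex, on 26 values from 13 strains, gave F = 10.5 and an adjusted p of 0.00823, rank 79 of all features. By this test 1.2% of all features were called, and the median SD between strains over all features was 0.15. For Cyp26a1 the residual SD of single values around the fit with strain and sex terms was 0.29.

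Among the 13 strains with both orientations, 4 stood apart for Cyp26a1. BXD15 (2.43), BXD11 (2.08), BXD28 (2.01) and BXD19 (1.90) stood above a gap of 0.77, and the other 9 strains lay between 0.64 and 1.13. The strains with forward arrays only filled that gap, with means of 1.86 in BXD8, 1.78 in BXD14, 1.42 in BXD9 and 1.24 in BXD27, so the 17 strains formed no separate sets. Of the 13 strains, the same 4 were the highest in each sex. Their females had 1.84 in BXD11, 2.08 in BXD19, 2.26 in BXD15 and 2.30 in BXD28, and females of the other 9 strains had 0.62 to 1.23. Their males had 1.72 in BXD19 and BXD28, 2.31 in BXD11 and 2.60 in BXD15, and males of the other 9 strains had 0.34 to 1.51. Males of BXD8 (2.24) and BXD14 (1.79), measured on forward arrays only, lay above the males of BXD19 and BXD28 averaged over both orientations. The separation was drawn from these values, so it is a description. Across the 13 strains, females and males correlated at r = 0.803 (1-sided permutation p = 0.00194, rho = 0.61, p = 0.0151), and at 0.708 without BXD15 and BXD11. Adjusted over all features the permutation p was 0.119, and 0.26% of all features passed that adjustment. Of the other 4 genes, Lrat (0.476, adjusted p = 0.368), Aldh1a7 (0.469, 0.355), Rdh7 (-0.105, 0.81) and Aldh1a1 (-0.354, 0.94) did not pass either.

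Single arrays differed by dye orientation as well as by strain. The 6 arrays of BXD15 read 2.56, 2.29, 2.49 and 1.71 in females and 2.84 and 2.36 in males. The 4 arrays of BXD5 read 0.98 and 0.26 in females and 0.73 and 0.61 in males, so the 2 strains did not overlap on any array. They were picked as the highest and lowest strain means. Single arrays of the 4 high strains did overlap those of the others. A forward array read 2.05 in BXD31 females and 1.81 in BXD28 males. A swapped array read 1.40 in BXD2 females and 1.36 in BXD19 females. Females of BXD31 were measured 3 times and read 1.41, 0.77 and 0.27 per replicate, the last from a forward array alone. Over 26 pairs of strain and sex, forward arrays read 0.49 ± 0.46 higher than swapped arrays for Cyp26a1, in 23 of 26 pairs. The strain difference was called on forward arrays alone (SD 0.66, adjusted p = 0.0189) and missed the threshold on swapped arrays alone (0.64, adjusted p = 0.0901).

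Arrays were also grouped into runs of consecutive deposition, which are not known batches. Among 5 male values of 1 run, Cyp26a1 ranged from 0.68 in BXD21 to 2.60 in BXD15. Among 6 female values of another run it ranged from 0.62 in BXD5 to 2.30 in BXD28. With the run as a term, an alternative chosen after seeing the data, the SD of the fitted strain terms was 0.68 (adjusted p = 0.00875). That fit counted repeats of the same strain and sex as separate values, unlike the main fit, so it differs by more than the run term. Leaving out each strain in turn kept the call in 13 of 13 fits, with the highest adjusted p of 0.0493 without BXD15. Without the BXD11 array of conflicting labels the SD was 0.64 (adjusted p = 0.00434).

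**Figure D3:**
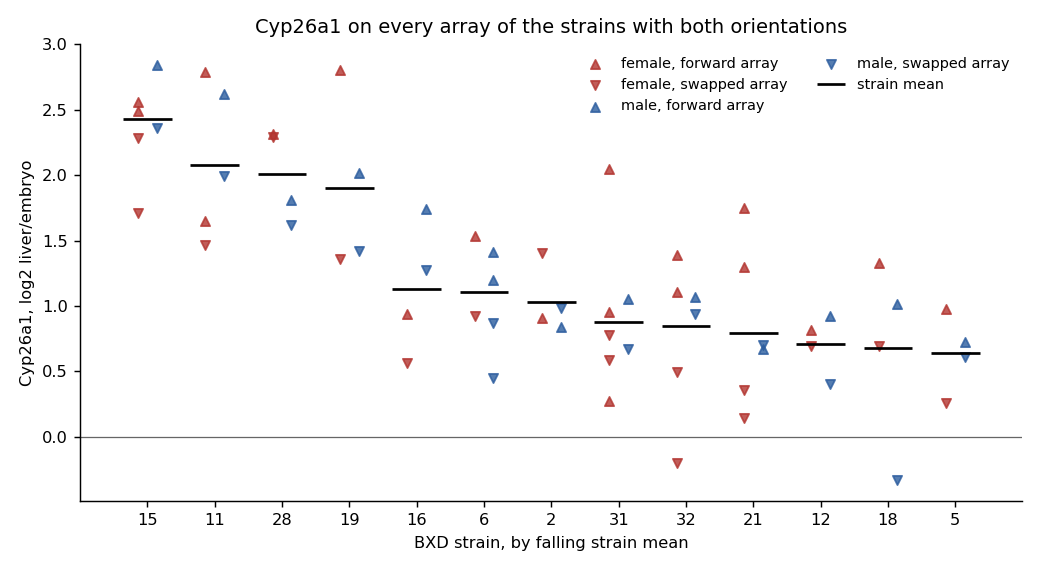
Log2 liver over embryo ratio of Cyp26a1 on each array (vertical axis) for the 13 strains with both orientations, ordered by strain mean (horizontal axis), with triangles up for forward and down for swapped arrays, females left of males, and bars for strain means. The first 4 strains have means of 1.90 or more and the remaining 9 have means of 1.13 or less.

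The other 4 genes were not called between strains. Aldh1a7 came nearest (SD 0.35, adjusted p = 0.26), with BXD28 at 3.1 and the other 12 strains at 2.68 or below. It passed the threshold when all 17 strains were used (SD 0.42, adjusted p = 0.0135), a fit in which strain and dye orientation are partly confounded. BXD14 and BXD8, with forward arrays only, had the lowest strain means of Aldh1a7, 1.51 and 1.60. Lrat had an SD of 0.25 (adjusted p = 0.273), Aldh1a1 of 0.13 (0.918) and Rdh7 of 0.11 (0.787). In the 4 strains with high Cyp26a1, Lrat was 1.40 in BXD28, 1.18 in BXD19, 0.98 in BXD15 and 0.59 in BXD11, against 0.47 to 0.88 in the other 9, so the sets overlapped. For Aldh1a1 they overlapped fully, at 4.08 to 4.42 against 4.05 to 4.42. Of 32 other genes on the retinoid and aldehyde dehydrogenase lists, Lpl was the only one called between strains (SD 0.67, adjusted p = 0.00805).

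Among pairs of the 5 genes, 10 in all, strain means of Rdh7 and Aldh1a7 had the highest r over 13 strains (r = 0.696, permutation p = 0.00835, rho = 0.61, p = 0.0307, n = 13 strains). Without the 2 strains farthest from the Rdh7 median r was lower, at 0.379, and whether the likeness rested on those strains was not tested. With all 13 strains the permutation p adjusted over all features was 0.854. For the neighbours Aldh1a1 and Aldh1a7 r was 0.618 (permutation p = 0.0258, rho = 0.522, p = 0.071) and 0.554 without the 2 farthest strains, with an adjusted p of 1.0. For Cyp26a1 and Lrat r was 0.553 (permutation p = 0.0468, rho = 0.429, p = 0.145, adjusted p = 0.251), and 0.858 without the 2 strains farthest from the Cyp26a1 median. Every value in such a correlation shares its arrays and its embryo mix.

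Across the 3434 other named genes, the pattern over 13 strain means most like that of Cyp26a1 was that of Tuft1 (r = 0.939), followed by Banf1 (0.900), Bcar3 (0.871), Naa10 (0.867) and Nme1 (0.859). These r values are given only as a likeness of pattern. Aldh1a7 was most like Mtarc2 (0.914), Khk (0.901), Masp2 (0.887), Mrpl23 (0.877) and Gstt1 (0.876). Lrat was most like Polr1c (0.863), B9d1 (0.850), Arf6 (0.845), Gpr180 (0.840) and Rpl19 (0.827). Rdh7 was most like Prdx5 (0.834), Nqo2 (0.794), Dbi (0.774), Tk1 (0.771) and H2-Ke6 (0.760). Aldh1a1 was most like Hgd and Mbl2 (both 0.825), Dapk3 (0.760), Abcg2 (0.751) and the retinol dehydrogenase Rdh11 (0.738). They are the highest of 3434 values each and are given without a test.

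With strain as a block and 34 values of 17 strains, 33.7% of all features were called, and of the 5 genes Lrat alone was. Female livers averaged 0.88 ± 0.42 and male livers 0.63 ± 0.32 for Lrat (SD, n = 17 strains each), a difference of 0.26 ± 0.40 or 1.2-fold, higher in females in 12 of 17 strains (adjusted p = 0.0385). The lowest, median and highest values were 0.13, 0.93 and 1.71 in females, against 0.11, 0.54 and 1.30 in males, so the sexes overlapped. The largest differences were 1.37 in BXD27, 0.69 in BXD2, 0.57 in BXD5 and 0.53 in BXD18.

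The Lrat call was not firm. It was lost on leaving out any of BXD2, BXD5, BXD14, BXD18, BXD28, BXD31 or BXD32, with differences of 0.23 to 0.25 and adjusted p-values of 0.054 to 0.0719. It was lost too in the 13 strains with both orientations (0.19, adjusted p = 0.0674), on forward arrays alone (0.23, 0.101), on swapped arrays alone (0.23, 0.0862) and with the run of deposited arrays as a term (0.36, 0.133). The run fit used 39 values, 1 per strain, sex and replicate number. Without the run term those values gave 0.25 (adjusted p = 0.0477). Within the 5 runs that held both sexes the difference was 0.64, -0.22, -0.09, 0.16 and 1.37, and only the last 2 runs set the same strains against each other. Stellate cells are the main site of Lrat in liver. The list of stellate cell and fibroblast markers does not separate these cell types. Of its 16 genes, 4 were measured, Lum, Col1a1, Col1a2 and Acta2. Their mean log2 ratio per strain was -1.79 to -0.78 in females and -1.65 to -1.02 in males, and it was higher in females in 14 of 17 strains, by 0.13 on average. Lum rose by 0.27 in females (adjusted p = 0.0162) and the other 3 were not called. Markers of lymphocytes were higher in females in 17 of 17 strains, by 0.14 on average, and those of macrophages in 12 of 17, by 0.11. The macrophage markers split, with C1qa at 0.35 and C1qb at 0.37 but Cd5l at -0.18 and Marco at -0.1. Hepatocyte markers were higher in females in 10 of 17 strains (mean difference -0.01), endothelial markers in 8 (0.03) and bile duct markers in 2 (-0.1). The first 2 of these lists also split. Of 5 endothelial markers, Tek was called higher (0.33), Tie1 (-0.26) and Flt4 (-0.12) were called lower, and 2 were not called. Of 10 hepatocyte markers, Baat was called higher (0.30), Cyp8b1 was called lower (-0.53), and 8 were not called. The part of any of these in the Lrat difference was not tested.

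Cyp26a1 averaged 1.34 ± 0.57 in females and 1.31 ± 0.67 in males (SD, n = 17 strains each), a difference of 0.04 ± 0.48 (adjusted p = 0.829). Single strains differed either way, from -0.77 in BXD8 to 1.02 in BXD27. The differences were 0.13 ± 0.32 for Rdh7 (adjusted p = 0.204), 0.16 ± 0.43 for Aldh1a7 (0.241) and -0.04 ± 0.41 for Aldh1a1 (0.766). Scaling arrays to the same median absolute deviation moved them to 0.72 for Rdh7 (0.00306), 0.45 for Aldh1a7 (0.00819) and 0.52 for Aldh1a1 (0.0234), so for Aldh1a1 the direction depended on the scaling. With quantile normalization Aldh1a1 was at -0.19 (0.0475). On swapped arrays alone Rdh7 was at 0.43 (0.00131) and Aldh1a7 at 0.38 (0.00687), while on forward arrays alone Rdh7 was at -0.06. In the 13 strains with both orientations Rdh7 was at 0.19 (0.0416).

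**Figure D4:**
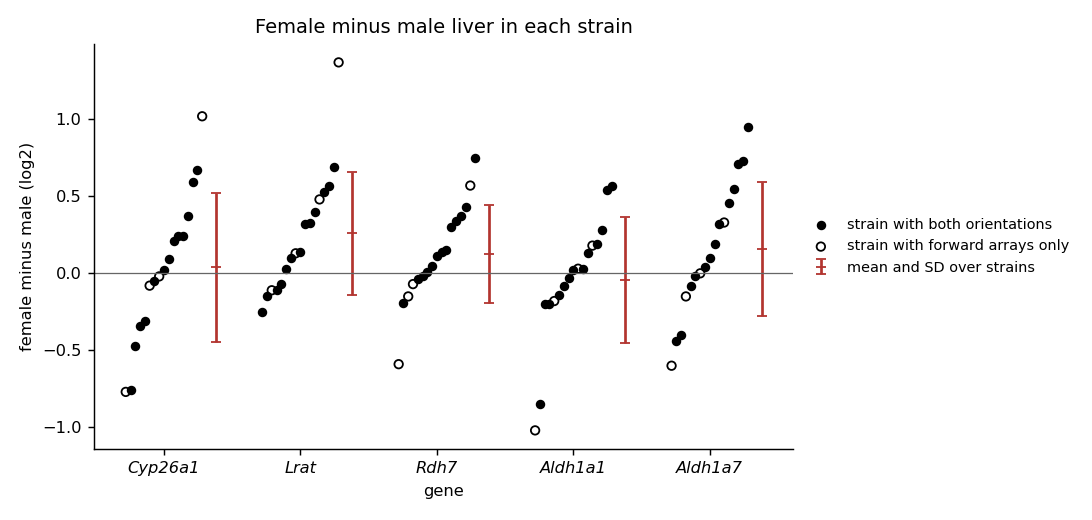
Female minus male log2 difference (vertical axis) of each gene (horizontal axis), with 1 point per strain, open for strains with forward arrays only, and the mean with its SD over 17 strains beside them. Lrat has 12 of 17 points above 0 and a mean of 0.26, and the points of each gene lie on both sides of 0.

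Of the other retinoid genes, a few differed between the sexes. Among the 9 oxidoreductases, Rdh11 and Adh5 were higher in females (both 0.34, adjusted p = 0.00595 and 0.0339) and Akr1b8, an aldo-keto reductase, was lower (-0.33, adjusted p = 0.00114). Lower in females were also Rlbp1, a retinaldehyde-binding protein (-0.27), Rpe65, an enzyme of the visual cycle (-0.26), and the homeobox gene Hoxb1 (-0.44). Aldh3a2 was higher in females (0.51, adjusted p = 0.017). These are 3 higher and 4 lower calls among 32 genes on the lists, where 16.5% of all features were called higher and 17.2% lower. Sex and the run of deposited arrays were partly confounded. Over all features 7381 sex calls became 4695 with the run as a term, and that fit was not examined for these genes. It used 39 values, 1 per strain, sex and replicate number, in place of 34. Without the run term those 39 values gave 8280 calls, in a fit added after seeing the data.

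B6 male liver was measured on 1 forward and 1 swapped array, so its values carry no test. Lrat read 0.05 and 0.15 there, with a mean of 0.10, against 0.46 to 1.30 in males of the 13 BXD strains, all of which lay above B6. Males of 3 strains with forward arrays only lay nearer, at 0.11 in BXD8, 0.24 in BXD9 and 0.34 in BXD27. The 4 BXD female values from the same run of deposited arrays were 0.48 to 0.96. Cyp26a1 read 0.91 and 0.03 in B6 males, with a mean of 0.47, and 12 of 13 BXD males lay above it. Rdh7 had a mean of 3.93 with 12 of 13 BXD males above it. Aldh1a1 (4.39) and Aldh1a7 (2.41) lay inside the range of the BXD males, 3.76 to 4.57 and 1.47 to 3.

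On the direct arrays, B6 and D2 liver were compared in 4 values, 2 of females and 2 of males. In each sex, replicate 1 averaged a forward and a swapped array, and replicate 2 was a swapped array alone. A dye effect is therefore not balanced over the 4 values. None of the 5 genes was called, against 0.178% of all features (0.0913% higher and 0.0867% lower in B6). Aldh1a1 was higher in B6 in 4 of 4 values, 0.44 and 0.47 in females and 0.29 and 0.32 in males (mean 0.38 ± 0.09, 1.3-fold, adjusted p = 0.218). Aldh1a7 was at 0.11, 0.24, 0.47 and 0.38 in the same order (0.30 ± 0.16, adjusted p = 0.366), and Lrat at 0.16, 0.18, 0.33 and 0.41 (0.27 ± 0.12, adjusted p = 0.37). All 4 values were above 0 for both. For Lrat, the first female value averaged -0.01 on the forward and 0.33 on the swapped array. None of the other retinoid genes on the lists was called, and Lpl had the largest ratio among them (1.21, adjusted p = 0.112).

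Cyp26a1 was at -0.42 and -0.62 in females and at 0.16 and -0.10 in males (mean -0.24 ± 0.34, adjusted p = 0.436). The difference between the sexes in this ratio was -0.55 (adjusted p = 0.631 for the sex term), and no feature was called for that term (0%), with 1673 at an unadjusted p under 0.05. The male Cyp26a1 value of 0.16 averaged 0.40 on the forward and -0.08 on the swapped array. Rdh7 was at -0.11 and -0.15 in females and at 0.14 and 0.05 in males (mean -0.02 ± 0.13, adjusted p = 0.923). The enriched arrays, 1 per sex, read 0.53 in the female and -0.06 in the male for Aldh1a1, 0.03 and -0.58 for Cyp26a1, and -0.23 and -0.41 for Rdh7. Forward and swapped arrays of the same B6 and D2 RNAs correlated at -0.133 in females and 0.019 in males before turning, against -0.895 to -0.556 for liver against embryo. Pairs that repeat each other have a strongly negative r before turning, so the direct pairs repeated each other little over all features.

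**Figure D5:**
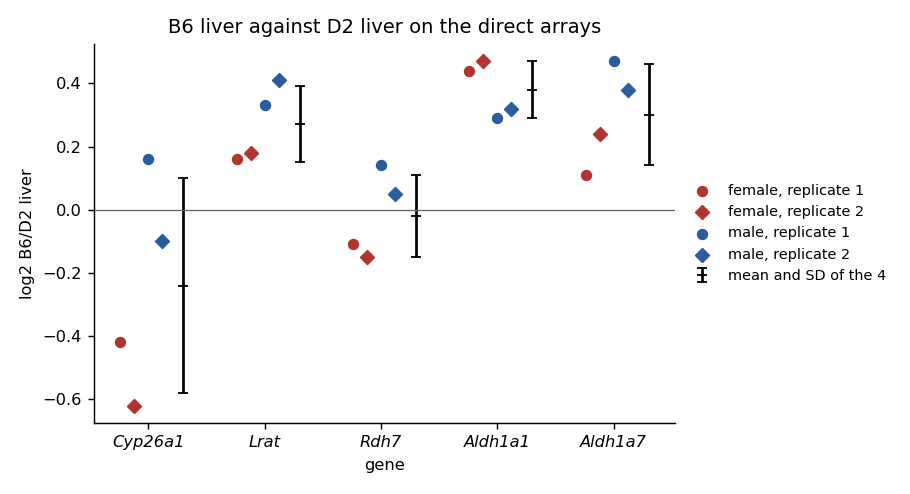
Log2 B6 over D2 liver ratio (vertical axis) of each gene (horizontal axis) in 2 female and 2 male values, with the mean and SD of the 4 beside them. Lrat, Aldh1a1 and Aldh1a7 have all 4 values above 0, with means of 0.27, 0.38 and 0.30, and Rdh7 has its females below 0 and its males above 0.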

How the data were processed

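The authors deposited 1 log ratio per probe and array. The unit is not stated, and the deposited values were read as log10 (no value lay beyond 2, and none was missing) and multiplied to log2. Scanner, software, normalization and probe sequences are not stated in the labels or files, and signal depth could not be judged, so precision rests on the number of arrays. Array medians lay between 0 and 0.12, and no further centring was done. Symbols came from the platform annotation (3290 probes) and, by accession, from RefSeq (170 probes), 18 symbols with several probes were averaged, and 18472 probes had no name.

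Linear models were fitted with R 4.3.3 and limma 3.58.1 (default eBayes), and p-values were adjusted by Benjamini-Hochberg over 21915 features. Liver was tested on 13 strain means, sex on 34 values with strain as a block, strain on 26 values with sex as a term, and B6 against D2 on 4 values. Strain correlations used 100000 permutations, and promoter windows were aligned with Biopython 1.88. The pipeline was tested on simulated data. Of related list genes, up to 4 called per direction were named, and for each of the 5 genes the 5 named genes with the highest r, passing over clone names. The 5 genes, the lists and the tests were chosen with earlier results of these data known. Alternatives covered centring, scaling, quantile normalization, orientation, strains, replicates, deposit runs, eBayes settings and 1 array with conflicting labels. The results of 1 gene on the related lists are not reported here.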

Additional observations from a re-analysis of the deposited data

Results flagged for a closer look

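Rdh7 had opposite signs in the sexes on the direct arrays of unenriched RNA: B6 was below D2 in both female values (-0.11 and -0.15) and above D2 in both male values (0.14 and 0.05). The female minus male difference was -0.22, and the sex term did not pass (limma, adjusted p = 0.675, unadjusted p = 0.162). The enriched arrays read -0.23 in the female and -0.41 in the male, the same sign in both. In 30 sets of 4 to 5 arrays or values of the 5 genes, no value stood apart from the rest by Dixon's test.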

How the results depend on the processing

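Of 491 alternative values for the 5 genes, 468 were counted as staying on their side of the threshold, though 20 of these, not called in either fit, changed sign. The 468 include sex correlations that had no threshold to cross. These are 1 per gene without the 2 farthest strains, and that of Cyp26a1 in its 9 lowest strains. Another 22 crossed the threshold, and 1 changed sign and was called, Aldh1a1 between the sexes at 0.52 with scaled arrays. The causes were not tested. Over all features, 7381 sex calls became 4695 with the deposit run as a term and 0 in the 4 strains with forward arrays only, with 6603 to 8142 when strains were left out in turn. The sex fit with the run used 1 value per strain, sex and replicate number, and those values gave 8280 calls without the run term. The 262 strain calls became 164 on forward arrays, 101 on swapped arrays, 5589 with all 17 strains and 767 with the deposit run as a term, and 139 to 278 with strains left out in turn, the lowest without BXD15. The strain fit with the run counted repeats of the same strain and sex as separate values, so its 767 calls do not show the run term alone. The 57 features with the same strain order in females and males became 4541 with 17 strains and 0 on forward or on swapped arrays alone. For Cyp26a1 that correlation passed with 17 strains (0.71, adjusted p = 0.0146), and in the 9 lowest strains, chosen after seeing the data by those values, it was -0.085 and bears no test. Of 5 alternatives for the Aldh1a7 correlation, 1 passed (adjusted permutation p = 0.0423), and 1, without the 2 farthest strains, had no test. The 39 calls of B6 against D2 became 77 with scaled arrays, 25 with replicate 1 only, 274 with a dye term, 510 with the enriched arrays added, and 0 to 29 with values left out in turn. With the replicate number as a replicate block they became 9, and the 7381 sex calls became 7837. That sex fit too used 1 value per strain, sex and replicate number. The numbers show only a shared label. On the direct arrays, deviations of replicates correlated at 0.325 between the sexes, over 2 pairs. Replicate 1 averaged both orientations and replicate 2 was swapped alone, so dye orientation and replicate number cannot be told apart there. With the block, no gene of the 5 changed its call.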
